A study of Homo sapiens with 6 samples.

Results

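The mRNA of MRC5 cells treated with luteolin plus TGF-β1 was compared with that of MRC5 cells treated with TGF-β1 alone, gene by gene. Of 60623 gene IDs in the count table, 13703 had a scaled level (CPM, counts scaled to library size) of 1 or above in either library, and these are the genes described here. MRC5 is a line of human lung fibroblasts, labelled as wild type, and each group was 1 library taken at 48 h: a DMSO control, TGF-β1, and luteolin given together with TGF-β1. The doses, the order of addition and any vehicle in the TGF-β1 group are not given in the labels. Library depth was 14609132 counts with TGF-β1 alone, 15563805 with the combination of luteolin and TGF-β1, and 17876657 in control, which enters only as a reference level.

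TGF-β1 is the cytokine that drives fibroblasts towards the myofibroblast, a contractile cell that lays down collagen, and luteolin is a plant flavonoid known as an inhibitor of several protein kinases. Division depends on waves of gene expression: E2F factors switch on the genes of DNA replication, and the MuvB complex with MYBL2 and FOXM1 switches on those of mitosis, while the DREAM complex represses both in resting cells. The p53 protein opposes these waves, chiefly through CDKN1A, whose product p21 blocks cyclin-dependent kinases.

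With 1 library a group there is no replicate check and no test. Every ratio below compares 2 libraries, and its exact 95% interval, also given as log2, reflects counting error and nothing else. A call of higher or lower needed 2-fold or more between scaled counts and an interval clear of 0. Under this rule 1707 genes were higher with luteolin + TGF-β1 and 2030 lower, that is 12.5% and 14.8% of the 13703, against which each group of genes is to be read. The median log2 ratio over all of them was -0.04, with quartiles at -0.61 and 0.52. Higher genes were 45.7% of the calls, 30.8% with scaling by total counts and 58.1% with upper-quartile scaling. At 8-fold or more, 196 genes were higher and 299 lower. Genes that entered the set through 1 library alone had to differ: of 819 that reached 1 CPM only with luteolin + TGF-β1, 607 were called higher, and of 686 that reached it only with TGF-β1, 496 were called lower.

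Fibroblast identity was checked with marker genes. All 10 fibroblast markers were eligible, of which COL1A2 (1.30), PDGFRB (1.20) and DCN (2.18) were higher, S100A4 (-1.61) lower and 6 not called. Among the last, VIM, the vimentin gene, had 4929 CPM in control, 5445 with TGF-β1 alone and 4358 with the combination. The epithelial genes SFTPC and NKX2-1, the endothelial gene PECAM1 and the leukocyte gene PTPRC had 0 counts in each of the 3 libraries. Other markers on the epithelial list were read. KRT18 had 82.1 CPM in control, 120 with TGF-β1 alone and 35.5 with the combination, and KRT8 had 22.7, 18.8 and 25.7 CPM. Among the markers of other cell types that were detected, 2 of 3 eligible epithelial markers, 1 of 1 endothelial, 1 of 1 leukocyte and 3 of 7 pericyte and smooth muscle markers were lower with luteolin + TGF-β1, and 1 of those 7, NOTCH3, was higher at 1.19. The endothelial receptor gene TEK, with 501 counts against 40, was the most changed of them. In bulk RNA, fewer cells of a type and less RNA per cell cannot be told apart.

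**Figure D1:**
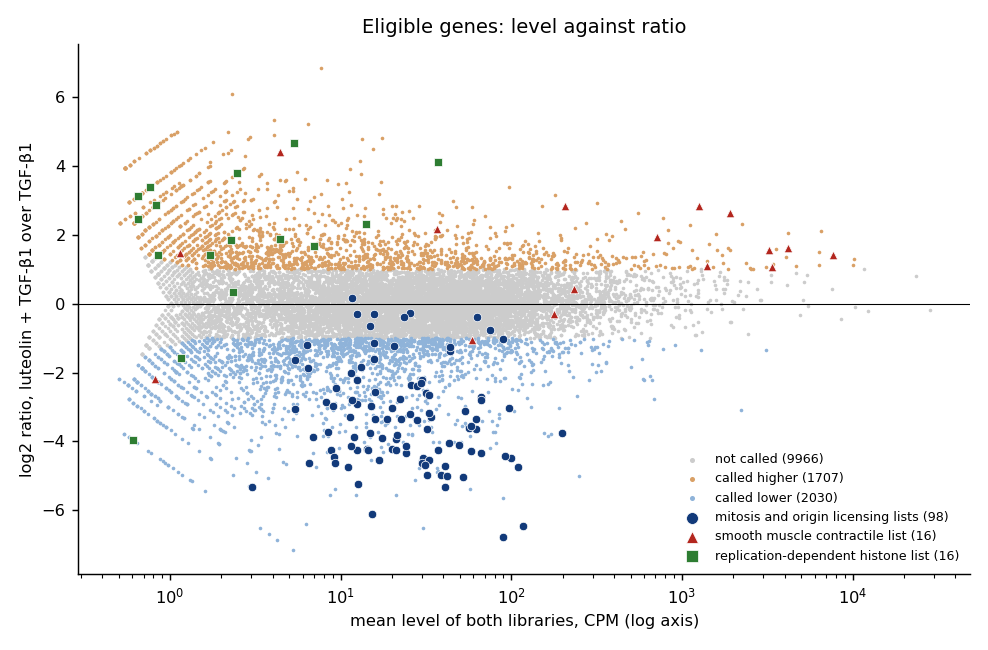
Log2 ratio of luteolin + TGF-β1 over TGF-β1 against the mean level of both libraries (CPM, log axis), 1 point per eligible gene, with called genes in colour and 3 gene lists marked. The 98 genes of the mitosis and origin licensing lists lie below 0 with 1 exception (ORC4, at 0.16, which is below 0 with total counts), while most smooth muscle contractile genes and replication-dependent histone genes lie above it.

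Most genes of cell division were lower. Pooling the lists for origin licensing, mitotic kinesins, kinetochore and spindle checkpoint, 90 of 98 genes were lower and 0 higher. At least 8-fold lower were 62 of them, a size that 2.18% of all eligible genes reached. The pool holds 7 kinetochore and 2 spindle checkpoint genes that passed 1 CPM in 1 library alone and so had to differ. CDC20, which activates the anaphase-promoting complex, had 151 CPM in control, 231 with TGF-β1 alone and 2.63 with the combination. CCNB1, the cyclin B1 gene, went through 163, 177 and 3.51 CPM, and PLK1, the polo-like kinase gene that drives mitotic entry, through 88.2, 127 and 6.29 CPM. In each of these the control and TGF-β1 libraries were within 2-fold of each other and the luteolin + TGF-β1 library stood far below both.

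The promoters of these 3 genes are shown because the mitotic genes share short letter runs there. Each is 300 bases of RefSeq GRCh38.p14, from 250 bases before the start of the transcript to 50 after it, on the plus strand and 5′ to 3′: CDC20 at chr1:43358731-43359030, CCNB1 at chr5:69166900-69167199 and PLK1 at chr16:23678639-23678938. Capitals mark CCAAT, the letters bound by NF-Y, and TTTGAA, the letters of the cell-cycle homology region bound by MuvB, on either strand.

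CDC20: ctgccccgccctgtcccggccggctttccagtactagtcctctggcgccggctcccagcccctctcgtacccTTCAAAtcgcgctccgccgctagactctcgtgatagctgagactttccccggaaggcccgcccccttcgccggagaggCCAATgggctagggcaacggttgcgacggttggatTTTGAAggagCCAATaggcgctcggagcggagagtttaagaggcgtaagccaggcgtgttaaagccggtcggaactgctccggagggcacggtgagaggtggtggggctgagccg
CCNB1: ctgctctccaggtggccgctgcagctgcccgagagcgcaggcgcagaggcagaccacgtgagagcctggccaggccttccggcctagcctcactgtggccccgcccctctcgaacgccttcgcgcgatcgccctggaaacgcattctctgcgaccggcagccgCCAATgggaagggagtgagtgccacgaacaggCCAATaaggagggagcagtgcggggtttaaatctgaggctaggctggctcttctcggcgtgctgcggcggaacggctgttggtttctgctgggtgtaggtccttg
PLK1: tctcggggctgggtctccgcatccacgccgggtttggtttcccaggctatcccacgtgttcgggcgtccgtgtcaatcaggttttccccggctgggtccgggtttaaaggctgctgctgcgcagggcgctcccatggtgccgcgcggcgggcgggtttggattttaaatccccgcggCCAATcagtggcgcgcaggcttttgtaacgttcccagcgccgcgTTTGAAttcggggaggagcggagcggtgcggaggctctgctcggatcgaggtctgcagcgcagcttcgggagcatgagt

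In CDC20, TTTGAA stands at position -65 and CCAAT at -55 and -100, counted from the start of the transcript, with a further TTTGAA on the other strand at -178. PLK1 has TTTGAA at -29 and CCAAT at -73, and CCNB1 has CCAAT at -55 and -87 and no TTTGAA in this window. No 2 of these matches overlap. The search took the exact letters only, so other forms of the cell-cycle homology region were not looked for. Over the 3 mitotic lists (kinesins, kinetochore, spindle checkpoint), 54 of the 68 genes called lower had 63 promoters in the RefSeq table. CCAAT was in 73.0% of those promoters and TTTGAA in 52.4%, and 38.1% held both. Among the 35116 promoters of the whole table the shares were 34.6%, 15.2% and 5.90%, and among the 14910 of eligible genes 34.8%, 10.4% and 4.10%. Genes called lower at least 8-fold held TTTGAA in 28.2% of 308 promoters, against 8.21% of 134 for those called higher by as much.

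The letter runs of the replication genes that were lower differed in part. The search covered 48 promoters of 36 genes from the origin licensing and polymerase lists. TTTGGCGC or TTTCCCGC, the core runs bound by E2F factors, were found on either strand in 17 of the 48 (35.4%). They were in 2.27% of all promoters, 3.37% of those of eligible genes and 4.76% of the 63 mitotic promoters. TTTGAA was in 4.17% of the 48. CCAAT was in 24 of the 48 and in 73.0% of the 63 mitotic promoters, against 34.8% of the promoters of eligible genes. These differences in share were not tested. A match is a run of letters and says nothing on whether a factor was bound in these cells.

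Origin licensing and the replicative helicase had 22 of 26 genes lower and a median log2 ratio of -3.11. MCM2, a helicase subunit, had 76.0 CPM in control, 113 with TGF-β1 alone and 10.97 with the combination, for a ratio between -3.61 and -3.12, and the 6 subunits from MCM2 to MCM7 lay between -2.71 (MCM3) and -3.76 (MCM7). Within the origin recognition complex, ORC1, the subunit that cycles, was at -4.26 and ORC6 at -2.57, whereas ORC2, ORC3, ORC4 and ORC5 lay between -0.64 and 0.16 and were not called. Replicative polymerases, clamp and lagging-strand genes had 23 of 27 lower (median -1.96). POLE2, a subunit of polymerase ε, went from 100 counts to 1, for which the interval ran from -11.84 to -4.01, while PCNA, the sliding clamp and a gene that p53 also induces, was at -1.32.

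Nucleotide supply split along a known paralog pair. RRM2, the S-phase subunit of ribonucleotide reductase, went from 290.2 to 21.6 CPM (-3.75, interval -3.93 to -3.58), and TK1, thymidine kinase 1, was at -3.01. RRM2B, the p53-induced subunit that replaces RRM2 in resting cells, went from 32.6 to 89.3 CPM (1.46, interval 1.30 to 1.61). It was the 1 higher gene in a list of 13 with 8 lower.

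Cyclins and their kinases had 14 of 18 genes lower and 1 higher. Those of S phase and mitosis were lower, such as CCNA2, the cyclin A2 gene, at -3.21 and CDK1 at -3.73. The D-type cyclins that act earlier were not: CCND1 lay at 1491 and 2009 CPM (0.43, below 2-fold), CCND3 at -0.23, and CCND2 was the higher gene, at 5.36 against 22.2 CPM (2.05, interval 1.69 to 2.42). CDK4, a partner of the D-type cyclins, was just past the threshold at -1.02 (interval -1.11 to -0.94), and its paralog CDK6 was at -0.52. Of the E2F, FOXM1, MYB and MuvB factors 10 of 18 were lower. E2F8 and E2F2 fell furthest, at -6.40 on 185 and 2 counts (interval -9.46 to -4.53) and -5.28 on 85 and 2 counts (interval -8.35 to -3.39), followed by MYBL2 at -4.02 and E2F1 at -3.06; E2F3, E2F4, E2F5 and E2F6 were not called. CDK inhibitors and retinoblastoma genes were split: CDKN1A and CDKN2B were higher, CDKN2C (-2.78) and RBL1 (-2.49) lower, and CDKN1B, RB1 and RBL2 lay between -0.13 and 0.39; the median of this list changed sign with the scaling.

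Kinesins, the motors that walk on microtubules, separated by job. All 13 mitotic kinesins were lower (median -4.28), from KIF23, a motor of the midzone, at -2.78 to KIF20A at -6.78. KIF11, which pushes spindle poles apart, had 78.0, 93.1 and 5.41 CPM in control, TGF-β1 alone and the combination. Of 17 transport kinesins 1 was lower, KIF21B, and 2 were higher, KIFC2 at 2.40 and KIF26B at 2.62. KIF5B, the conventional kinesin heavy chain and the most read member, had 268 and 245 CPM. The transport median of -0.05 was 0.12 with upper-quartile scaling.

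Kinetochore genes had 31 of 34 members lower (median -3.01). Of the 34, 7 passed 1 CPM in 1 library alone and so had to differ. NDC80, which holds the microtubule, was at -5.22 and CENPA, the centromeric histone, at -4.74, and 3 members of the assembly were not called, CENPT, NSL1 and MIS12. In the spindle checkpoint and anaphase list 24 of 25 were lower (median -4.12), with AURKB, the Aurora B kinase, at 62.2 and 1.97 CPM and FZR1, the other activator of the anaphase-promoting complex, short of the rule at -0.75. Condensin, cohesin and topoisomerase II genes had 14 of 21 lower. TOP2A was at -3.79 and its paralog TOP2B at -1.06, the condensin subunit NCAPG at -4.03, and the cohesin genes SMC3, STAG1, STAG2, PDS5A and PDS5B lay between -0.68 and -0.21. In cytokinesis 8 of 14 were lower, with ANLN, the anillin gene, at 307 and 21.6 CPM, and the septins SEPTIN2, SEPTIN7, SEPTIN9 and SEPTIN11, which also act in resting cells, lay between -0.65 and 0.91.

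**Figure D2:**
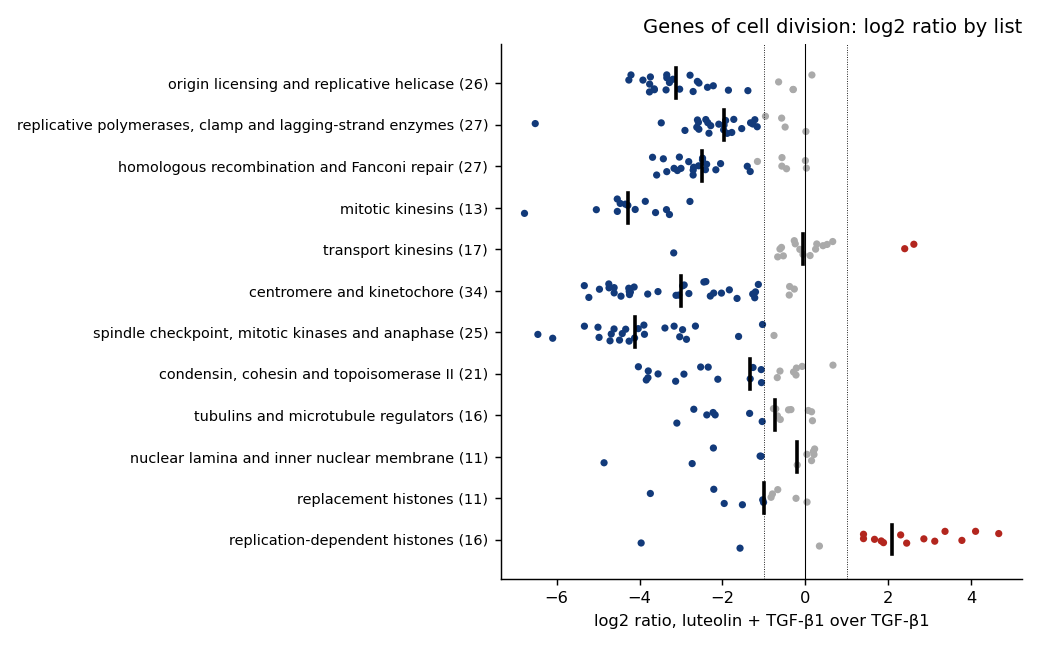
Log2 ratio of luteolin + TGF-β1 over TGF-β1 for the eligible members of 12 division lists, 1 point per gene with a small vertical scatter, blue for called lower, red for called higher, grey for not called, a black bar for the list's median and dotted lines at 2-fold. The mitotic kinesins all lie below -2.7, the transport kinesins centre on 0, and the replication-dependent histones lie mostly above 0.

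Homologous recombination and Fanconi genes had 21 of 27 members lower (median -2.48): FANCD2 was at -3.59, BRCA1 at -2.57 and BRCA2 at -2.41. End joining had 4 of 10 lower (median -0.88), with the Ku subunit XRCC5 at -1.17 and LIG4, the ligase of the pathway, at 0.67. The difference between these lists was not tested. Chromatin genes of the replication fork had 15 of 19 lower: UHRF1, which guides DNA methylation, had 153 and 9.21 CPM (-4.06), DNMT1, the maintenance methylase, was at -2.34 and EZH2, the Polycomb methylase, at -2.56. HMGA1, an architectural chromatin protein and by far the most read of them, went from 1203 to 177 CPM (-2.77, interval -2.83 to -2.71).

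LMNB1 (chromosome 5 from 126776623 to 126837020), the lamin B1 gene whose loss is a known mark of senescent fibroblasts, had 65.0 CPM in control, 72.0 with TGF-β1 alone and 2.49 with the combination (-4.86, interval -5.39 to -4.36). Of 11 lamina genes 5 were lower and 0 higher. LMNB2 was at -2.22 and TMPO, a lamin-binding protein gene, at -2.73, while LMNA, which makes lamins A and C, lay at 739 and 821 CPM (0.15; -0.07 with total counts). Of 16 tubulin and microtubule-regulator genes 7 were lower. TUBA1B (chromosome 12 from 49127782 to 49131395), the main α-tubulin, went from 3962 to 462 CPM, the second largest loss of CPM of any gene after FN1, and the β-tubulin TUBB from 4481 to 1767 CPM, while TUBB6 lay at 774 and 815 CPM. Tubulin genes are close copies, so reads may be shared between them. STMN1, the microtubule destabiliser stathmin, was at -2.69.

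Histone genes went both ways. Replication-dependent histone genes, whose mRNAs normally end in a stem-loop and not in a poly(A) tail, were mostly undetected: 45 of 61 were below 1 CPM in both libraries. Of the 16 that passed, 13 were higher and 2 lower, 14 of the 16 lying in the clusters of chromosome 6. As 10 of the 16 passed through 1 library alone and so had to differ, the count of calls is a description and supports nothing. H2AC6 (chromosome 6 from 26124172 to 26124690) had 10.9 CPM in control, 4.09 with TGF-β1 alone and 70.6 with the combination (4.11, interval 3.74 to 4.51), and H2BC5 had 1.11, 0.402 and 10.2 CPM (4.67). Both stood highest in the luteolin + TGF-β1 library and lowest in the TGF-β1 library. Although the summed counts rose from 446 to 2013, fewer of the 61 genes had any count, 32 against 48. Replacement histones, which have poly(A) tails, were lower in 6 of 11 cases and higher in 0, led by H2AX, the variant marked at DNA breaks, at -3.74, and H2AZ1 at -1.96.

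The kit captures polyadenylated RNA, so values that bear on tail-less RNA are given beside the histones; both lists were chosen after values were seen. Among 20 RNAs that mostly lack a poly(A) tail 4 were eligible: MALAT1 (1.89) and the signal recognition particle RNA RN7SL1 (1.39) were higher, and SNORD3A (-0.15) and SNORA73B (-0.72) were not called. Among 9 genes that act in histone mRNA 3′ end formation ZNF473 and CSTF2 were lower, and SLBP, the stem-loop binding protein gene, had 56.7 and 29.0 CPM (-0.97), short of the rule. Their part in the histone values was not tested.

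Of 29 p53 target genes 16 were called higher and 0 lower, with a median of 1.16. TP53INP1, which promotes autophagy and p53 activity, went furthest, with 25.02 CPM in control, 16.8 with TGF-β1 alone and 177 with the combination (3.40, interval 3.21 to 3.59). SPATA18, a gene of mitochondrial quality control, was at 2.61, BTG2, an antiproliferative gene, at 2.56, TIGAR, a regulator of glycolytic flux, at 2.44, and ZMAT3, an RNA-binding protein gene, at 1.84. The targets that kill cells divided: FAS and TNFRSF10B, which encode death receptors, were higher at 1.88 and 1.42, whereas BAX (-0.02), PMAIP1 (-0.28), BBC3 (0.67) and AEN (-0.01) were not called. MDM2, the p53 ubiquitin ligase and a classical target, lay at 0.95, just short of 2-fold. In the BCL2 family 3 of 15 were higher, among them BNIP3 and BNIP3L, genes of mitophagy that hypoxia induces (both 1.43), and BCL2 was lower at -1.87; the list's median of 0.07 changed sign with the scaling.

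FOXO and quiescence genes had 5 of 16 higher and 0 lower (median 0.81), with IRS2, the insulin receptor substrate, at 1.92 and BCL6 at 1.44. Secreted factors of senescence were mixed, 6 of 18 higher and 3 lower. The stromelysin MMP10 was at 3.33 on 5 and 46 counts (interval 2.002 to 5.017) and MMP3 at 2.96, ANGPTL4 at 2.12 and VEGFA at 1.96. IL6 (104 and 155 counts) and CXCL8 (17 and 17 counts) were not called, and CCL2, a monocyte chemokine, fell from 73 counts to 0, which with 3 counts as the floor is at least 22.3-fold lower.

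**Figure D3:**
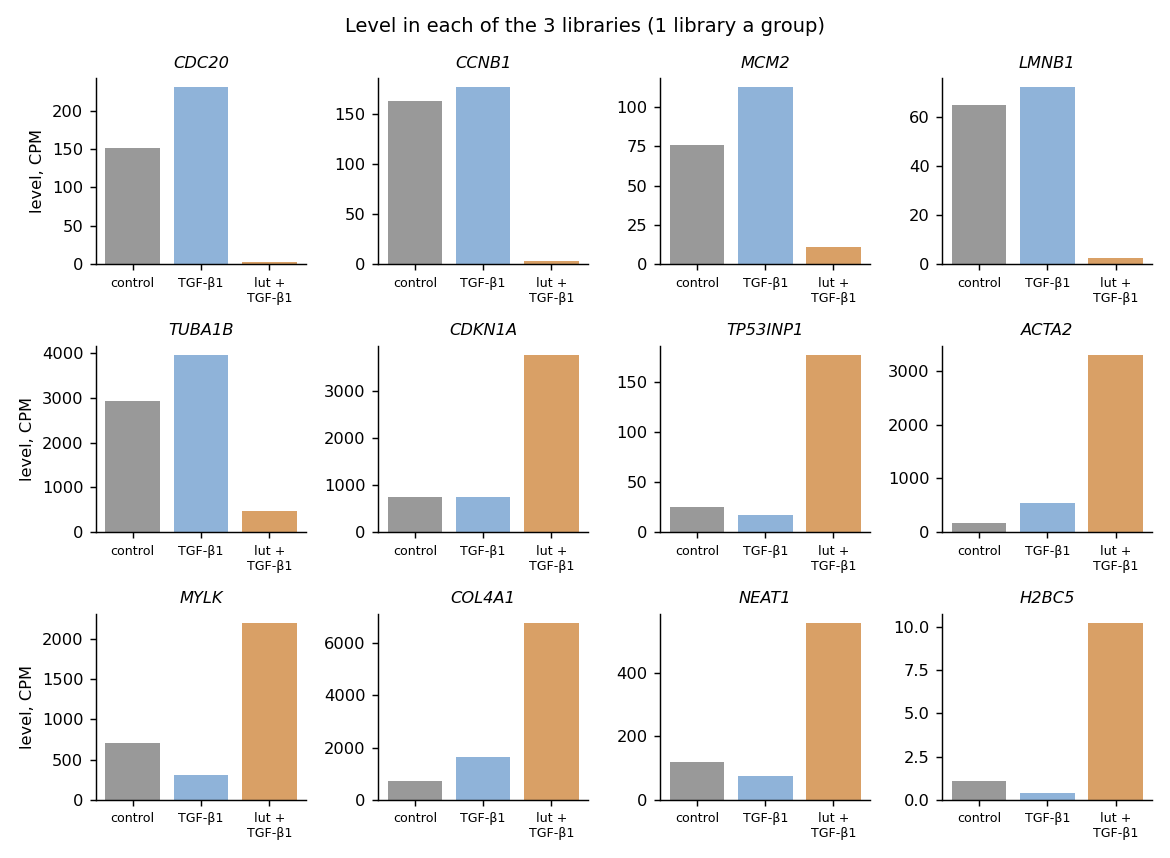
Level in CPM of 12 genes in 3 libraries, control, TGF-β1 alone and luteolin + TGF-β1, 1 bar per library, each axis from 0 and 1 library a group, so there are no error bars. The upper 5 division and cytoskeletal genes drop to 462 CPM or less in the third library, and the 7 others, from CDKN1A to H2BC5, stand highest there.

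Of 16 eligible smooth muscle contractile genes 12 were higher and 2, DES and MYOCD, lower, with a median of 1.52. Among the 16, 3 passed 1 CPM in 1 library alone and so had to differ. ACTA2, smooth muscle α-actin, had 164, 533 and 3302 CPM in control, TGF-β1 alone and the combination. It has 2 transcript starts in the RefSeq table, and the window of the muscle start on the minus strand at chr10:88952724-88953023 (GRCh38.p14) is shown for the serum response factor sites known from its promoter. The strict CArG box, with 6 A or T bases between CC and GG, has no match in either window. Capitals mark the pair of matches, at -121 and -71, that a single inner mismatch allows, a search added after the strict one found none.

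ACTA2: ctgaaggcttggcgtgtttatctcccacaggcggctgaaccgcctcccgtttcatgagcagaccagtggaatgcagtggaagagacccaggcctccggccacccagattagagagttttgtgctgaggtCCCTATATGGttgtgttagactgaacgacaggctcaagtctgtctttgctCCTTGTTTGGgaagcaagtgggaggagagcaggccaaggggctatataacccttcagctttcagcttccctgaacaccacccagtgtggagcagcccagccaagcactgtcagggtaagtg

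A CArG box with up to 1 inner mismatch was in 8.13% of all promoters and in 7.36% of those of eligible genes. It was in 5 of 16 promoters (31.3%) of 9 higher smooth muscle contractile genes. ACTA2 is among these genes, so its match was fixed by the choice of search. The strict box was in 2 of the 16 (12.5%), against 1.29% of all promoters and 1.21% of those of eligible genes. The counts do not tell which of the starts was used.

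MYLK (chromosome 3 from 123610049 to 123884332), the kinase that switches on smooth muscle myosin, had 710.2 CPM in control, 307 with TGF-β1 alone and 2204 with the combination (2.85, interval 2.80 to 2.89). LMOD1, a nucleator of actin filaments in smooth muscle, had 59.6, 50.6 and 361 CPM (2.84), and SYNPO2, an actin-bundling protein gene, 40.1, 13.3 and 60.1 CPM (2.17). These 3 were lower or level with TGF-β1 and stood highest with luteolin + TGF-β1. The members most read in the luteolin + TGF-β1 library, TAGLN, TPM2 and CALD1, went from 4213, 2057 and 1629 CPM to 11099.9, 6262 and 4810.0 CPM. CNN1, calponin, lay at 0.43 and SMTN, smoothelin, at -0.29.

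Of 5 actin isoforms 2 were higher, and they can be compared per length in the deposited TPM. ACTB went from 15399 to 11578 TPM and ACTG1, the other cytoplasmic actin, from 13492 to 8506 TPM, while ACTA2 went from 712 to 3808 TPM and ACTG2, the enteric actin, from 312 to 1027 TPM. By scaled counts, on which the calls rest, the log2 ratios were -0.20 for ACTB and -0.45 for ACTG1, neither called. They were 2.63 for ACTA2 and 1.93 for ACTG2. Cytoplasmic actins remained above the muscle isoforms in both libraries. The isoforms are near-identical in their coding parts, so their counts are uncertain where reads could be shared.

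Stress fibre and focal adhesion genes had 10 of 31 higher and 0 lower (median 0.66). PALLD, palladin, was at 1.82, the LIM protein gene CSRP1 at 926 and 2811 CPM and TNS1, tensin, at 586 and 1718 CPM (1.55), and FLNA, filamin A, at 6358 and 13749.7 CPM (1.11). Factors known to control contractile genes had a list of their own, which shares MYOCD with the smooth muscle contractile list. Of its 14 SRF, MEF2 and TEAD genes 0 were higher and 4 lower. MYOCD, the smooth muscle coactivator of SRF, went from 79.3 to 37.8 CPM (-1.07, interval -1.22 to -0.92), SRF itself lay at 0.43, MRTFA at 0.15 and MEF2C, on 65 and 5 counts, at -3.57. The median of these factors, 0.15, was -0.07 with total counts. YAP/TAZ target genes had 3 of 21 higher and 3 lower. CCN2 was at 1.05, CCN1 at 0.65 and ANKRD1 at 0.02.

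**Figure D4:**
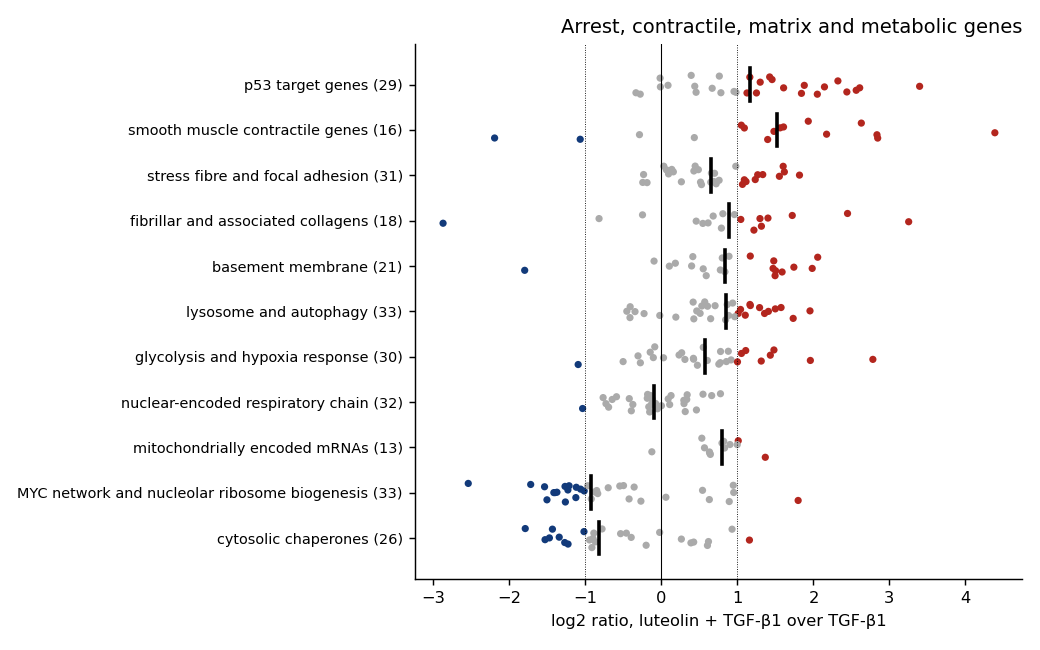
Log2 ratio of luteolin + TGF-β1 over TGF-β1 for the eligible members of 11 lists, drawn as for the division lists. Medians run from 1.52 for smooth muscle contractile genes to -0.92 for MYC and nucleolar genes, and the nuclear-encoded respiratory chain stays within 2-fold but for CYC1.

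Basement membrane genes, which encode the sheet of laminin, type IV collagen and nidogen that lines epithelium and vessels, had 9 of 21 members higher and 1 lower (median 0.84). COL4A1 (chromosome 13 from 110148963 to 110307157) had 714, 1629.6 and 6776 CPM in control, TGF-β1 alone and the combination (2.06), and its partner COL4A2 941, 1768 and 5312 CPM (1.59). A different order held for LAMA4, the laminin α4 chain, with 86.3, 18.8 and 74.4 CPM (1.98, interval 1.79 to 2.18), and for NID2, nidogen 2, with 278, 57.6 and 193 CPM (1.74). In these the TGF-β1 library, which both ratios share, was the lowest of the 3. The laminin chains LAMB1 and LAMC1 lay at 0.40 and 0.41.

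Fibrillar and associated collagens had 8 of 18 higher and 1 lower (median 0.88). COL11A2, a chain of cartilage collagen, was furthest at 3.25 on 15 and 131 counts (interval 2.48 to 4.13), COL5A1 went from 944 to 2494 CPM, and COL6A1 at 1.32, and COL24A1 was the lower chain at -2.87 on 56 and 7 counts. Collagen-modifying enzymes had 5 of 21 higher and 1 lower. LOXL2, a cross-linking lysyl oxidase, was at 1.72 with 675 and 2220.5 CPM, PLOD2, the telopeptide lysyl hydroxylase, at 1.21, and the relative LOXL1, which acts on elastin, was lower at -1.05. SERPINH1, the collagen chaperone, lay at 0.56. Elastic fibre genes had 6 of 16 higher and 0 lower, led by MFAP4 at 1.61 and FBLN5 at 1.36, both assembly factors, with FBN1, fibrillin 1, at 0.22.

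Small proteoglycans bind and space collagen fibrils, and hyaluronan is the unsulfated glycosaminoglycan of the matrix. In the small proteoglycan list 5 of 9 were higher: DCN, decorin, had 1169.9, 168 and 759.6 CPM in control, TGF-β1 alone and the combination (2.18), and LUM, lumican, 222, 31.5 and 119 CPM (1.91). Both were lowest with TGF-β1 and below control with luteolin + TGF-β1. TNFAIP6, which transfers heavy chains onto hyaluronan, was the lower member, with 22.2 and 1.54 CPM (-3.86). HAS2, the main hyaluronan synthase of fibroblasts, was lower too, with 104, 249.96 and 64.0 CPM (-1.96, interval -2.07 to -1.86), and HAS3 was higher on 13 and 34 counts. Within the synthesis and sulfation list, which had 4 of 26 higher and 2 lower and a median of -0.12 that changed sign with the scaling, SULF2 (chromosome 20 from 47657406 to 47786627), a sulfatase that edits heparan sulfate outside the cell, went from 2 to 209 counts (interval 4.96 to 9.89), while its relative SULF1 lay at 0.90. Among the 26, 2 passed 1 CPM in 1 library alone and so had to differ. SULF2, at 0.134 CPM with TGF-β1, is 1 of these.

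Matrix proteases and inhibitors moved both ways, 10 of 31 higher and 7 lower. SERPINE2, protease nexin 1, had 50.7, 238 and 1319 CPM in control, TGF-β1 alone and the combination (2.47), HTRA1, a secreted serine protease, 73.6, 55.4 and 231 CPM (2.06), and ADAM19 976 and 2871 CPM (1.56). The urokinase receptor gene PLAUR was lower at -1.41 together with its ligand gene PLAU. Of the tissue inhibitors, TIMP1 and TIMP2 were higher at 1.11 and 1.06 and TIMP3 was lower at -1.21, with 883 and 381 CPM. MMP2 and MMP14 were not called, at 0.71 and 0.43.

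TGF-β and BMP ligands, receptors and antagonists had 8 of 29 higher and 2 lower. INHBA, the activin A subunit, had 138, 379.8 and 1858 CPM (2.29, interval 2.25 to 2.33), and INHBB went from 2 to 40 counts (interval 2.50 to 7.54). TGFBR1, the type I receptor, was higher at 1.29 and TGFBR2, the type II receptor, lay at -0.73; the coreceptor TGFBR3 and the endothelial-type receptor ACVRL1 were lower at -1.18 and -1.53. GREM1, a BMP antagonist, was at 1.34 and NOG, noggin, at 1.90. TGFB1, TGFB2 and TGFB3 lay between -0.29 and -0.13. Of 20 SMAD and feedback genes 2 were higher and 2 lower, and SMAD2, SMAD3 and SMAD4, the transducers of TGF-β, lay between -0.08 and 0.17; the median of this list changed sign with the scaling.

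Of 35 MAPK feedback and immediate-early genes 12 were lower and 5 higher. Among the 35, 6 passed 1 CPM in 1 library alone and so had to differ. SPRY2, a feedback inhibitor of receptor kinases, was at -1.72, DUSP6, the ERK phosphatase, at -1.31, FOSL1 at -1.19 and ETV1 at -2.20. The orphan nuclear receptors NR4A1, NR4A2 and NR4A3 went the other way, at 1.97, 1.47 and 4.79, the last on 3 and 76 counts (interval 3.19 to 7.10). Nucleolar ribosome biogenesis and MYC network genes had 15 of 33 lower and 1 higher (median -0.92). NCL, nucleolin, went from 858 to 395 CPM (-1.12), FBL, fibrillarin, was at -1.26, and MYC lay at 78.1 and 42.5 CPM (-0.88), short of the rule. Among the partners of MAX, MXD3, which is read in S phase, was lower at -2.54 and MXI1, an antagonist of MYC, was the higher gene at 1.80.

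Growth factors had 5 of 24 higher and 4 lower: FGF7, keratinocyte growth factor, had 77.3, 16.7 and 80.1 CPM in control, TGF-β1 alone and the combination, and FGF5, at 215 and 88.5 CPM, was lower at -1.28. In the insulin-like growth factor list, with 3 of 15 higher and 1 lower, IGFBP4 was higher, at 439 and 1506 CPM (1.78), and the RNA-binding protein gene IGF2BP3 lower (-1.20). Guidance genes, which steer migrating cells and axons, had 9 of 27 lower and 3 higher. SEMA3A, a repulsive semaphorin, had 153, 71.4 and 2.41 CPM (-4.89, interval -5.43 to -4.39), its receptor NRP1 was at -2.14 and SLIT2 at -3.57, and PLXNB1 was higher at 1.64. Mesenchymal transcription factors had 5 of 18 lower and 2 higher, with TWIST2 at -2.27, PRRX1 at -1.15 and SOX4 at 1.41. Prostaglandin genes had 4 of 9 lower, led by the E2 receptor PTGER4 at -2.95, while the synthase PTGS1 was higher at 1.25.

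Of the hypoxia-inducible factor α subunits HIF1A and EPAS1, the latter alone was called. HIF1A lay at 253 and 195 CPM (-0.38), and EPAS1, at 393, 36.4 and 324 CPM in control, TGF-β1 alone and the combination, was the higher gene. Glycolysis and hypoxia genes had 8 of 30 higher and 1 lower (median 0.58), with PGK1 at 1.05, ENO2 at 1.48 and the glucose transporter SLC2A1 at 1.11, against CA12 at -1.10. Abundant glycolytic genes such as ENO1 (0.23), LDHA (0.31) and PKM (-0.15) were not called. The nuclear-encoded respiratory chain had 0 of 32 higher and 1 lower, with a median of -0.10 that was 0.07 with upper-quartile scaling.

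Mitochondrially encoded mRNAs, listed after their values were seen, had a ratio above 0 in 12 of 13 cases and a median of 0.80. Calls were 2 of 13, ND5 at 1.01 and ND3 at 1.37, a share near that of all genes, and the difference from the nuclear-encoded list was not tested. They took 2.69% of the counts with TGF-β1, 4.15% with luteolin + TGF-β1 and 3.359% in control. COX1, a subunit of cytochrome oxidase, had 9097, 7805 and 15581 CPM, a ratio just under 2-fold. ND6, the 1 mRNA encoded on the light strand, lay at -0.13 (interval -0.24 to -0.01), which was above 0 with upper-quartile scaling. RNR2, the large mitochondrial ribosomal RNA, rose from 2455 to 10628 CPM (2.11) while RNR1, the small one from the same precursor, went from 263 to 499 CPM (0.92). Both are polyadenylated only in part, and how far capture set these values was not tested.

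Lysosome and autophagy genes had 12 of 33 higher and 0 lower, with a median of 0.84. NPC1, the cholesterol exporter of the lysosome, was furthest with 218 counts in the TGF-β1 library and 774 in the combination, a ratio of 1.95 (interval 1.74 to 2.18), its partner NPC2 was at 1.73, the peptidase TPP1 at 61.6 and 174 CPM and the membrane glycoprotein LAMP1 at 1.17. The master factors of lysosome genes were not called: TFEB lay at 0.43, TFE3 at -0.41 and MITF at -0.41. Lipid synthesis had 4 of 24 higher and 2 lower, with SCD, the stearoyl-CoA desaturase, at 139, 309 and 1354 CPM (2.13). SQLE, a target of SREBP2, lay at 0.10 (-0.12 with total counts).

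Cytosolic chaperones had 8 of 26 lower and 1 higher (median -0.83): HSP90AA1 had 2509, 1869 and 735 CPM (-1.35) and CCT5, a subunit of the tubulin- and actin-folding chaperonin, was at -1.79. In the endoplasmic reticulum 1 of 28 was higher and 1 lower, and HSPA5 lay at -0.91; the median of 0.14 was -0.07 with total counts. NRF2 targets had 1 of 24 higher and 2 lower, and ATF4 targets 5 of 26 higher and 1 lower, the higher ones including VLDLR (2.21) and PSAT1 (1.16). SHMT1, the cytosolic serine hydroxymethyltransferase that serves thymidylate synthesis, was the lower one at -2.45.

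Splicing genes had 9 of 26 lower and 2 higher (median -0.60). HNRNPA1 went from 991 to 212 CPM (-2.22), although it has many processed copies that could take reads, and SRSF1 from 150.2 to 33.9 CPM (-2.15), both level between control and TGF-β1. The kinases CLK1 and CLK4, which phosphorylate SR proteins, were the higher ones at 1.61 and 1.23. SRSF5, SRSF6 and SRSF11 lay between 0.21 and 0.74.

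Long noncoding RNA and protein-coding genes are set side by side, with no test of the difference. Of 530 eligible lncRNA genes 38.7% were higher and 10.9% lower (median 0.74), against 9.53% and 15.3% of 11774 protein-coding genes (median -0.08). Levels differ between the types, so they were set side by side within ranges. Between 1 and 10 CPM, 39.0% of 356 lncRNA and 15.1% of 2881 protein-coding genes were higher, and between 10 and 100 CPM, 25.3% of 83 and 5.75% of 6818. By name, 126 of 309 genes with an antisense symbol were higher and 24 lower, 50 of 125 divergent transcripts (-DT) were higher and 8 lower, and 42 of 117 LINC genes were higher and 13 lower. Of 27 miRNA host genes 8 were higher and 9 lower. These name classes were not split by level, and genes that passed through 1 library alone were not counted apart. The strand setting of the counting is not given, so reads of an antisense gene and of its partner cannot be told apart.

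NEAT1 (chromosome 11 from 65422798 to 65445540), the scaffold of nuclear paraspeckles, had 118 CPM in control, 74.1 with TGF-β1 alone and 559 with the combination (2.92, interval 2.83 to 3.01). INTS6-AS1, on 5 and 171 counts, was at 5.22 (interval 3.97 to 6.86), AP1G2-AS1 at 4.77 and HIF1A-AS3 at 3.47. Lower lncRNA genes included MIR155HG, the host of miR-155, with 113 and 9 counts (-3.52), and TMPO-AS1, the antisense partner of TMPO named above, with 95 and 8 counts (-3.44).

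**Figure D5:**
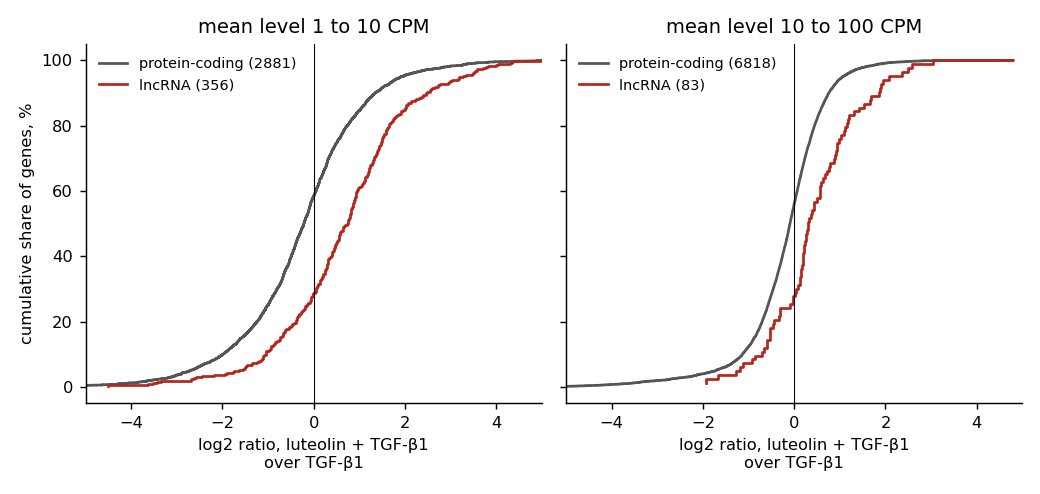
Cumulative share of genes (%) by log2 ratio of luteolin + TGF-β1 over TGF-β1, for lncRNA and protein-coding genes of the same mean level, 1 to 10 CPM on the left and 10 to 100 CPM on the right; ratios beyond ±5 lie outside the axis. In both ranges the lncRNA curve lies to the right: medians were 0.74 and -0.21 on the left and 0.33 and -0.09 on the right.

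Over the 62 lists together, 1202 eligible genes gave 186 higher and 350 lower, so that 3201 of the 3737 called genes belonged to none of these 62. Genes called higher took 10.7% of all scaled counts with TGF-β1 alone and 24.4% with the combination, and those called lower 10.6% and 2.86%. Among the 120 genes above 1000 CPM on average 40 were higher and 3 lower, the largest gains of CPM being COL1A1, which at 0.81 was not called, COL1A2 and RNR2. In the authors' deposited table, 1840 genes had a log2 fold change past 2-fold upwards and 1997 downwards among 13702 eligible genes with a value.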

How the data were processed

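Per the submitters' processing notes, fastp 0.20.0, HISAT2 2.1.0, featureCounts 2.0.1, edgeR 3.36.0 and the build hg38 were used. For the annotation release and the strand setting: not given in the sources used here. Per the labels' protocols, RNA was taken with TRIzol and libraries made with a stranded poly(A) kit. The authors deposited raw counts per gene, TPM, and their own log2 fold changes and p-values between single libraries. The p-values are not used here, and the miRNA table is not used here.

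Deposited counts were scaled by TMM over the 3 libraries (edgeR 4.0.16, R 4.3.3) and genes at 1 CPM or more in either library were kept. Ratios have exact 95% binomial intervals (scipy 1.17.1). They cover counting error only. A count of 0 was set to a floor of 3 counts, 0.201 CPM with TGF-β1 and 0.219 CPM with luteolin + TGF-β1. The steps were tested on simulated data. Promoters come from RefSeq (GRCh38.p14). The 62 lists hold 1358 genes, of which 1202 were eligible, and any list member could be named beside its list's counts, with preference for those furthest from 0 by the nearer bound of the interval, the most read, and those that give the list its name; outside the lists, genes furthest by that bound or by CPM difference and leading lncRNA genes were named. The members and lists were chosen with earlier results of these data known, and some lists after values were seen.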

Additional observations from a re-analysis of the deposited data

How the results depend on the processing

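The counts of called genes moved with the threshold. A 4-fold rule gave 542 higher and 752 lower, a 1.5-fold rule 2914 and 3332, and a minimum of 5 CPM 975 and 1474. The number of lists with over 50% of their members called one way, 17, became 8 at 4-fold and 28 at 1.5-fold. Scaling moved the split: total counts, which shifted all log2 ratios by -0.22, gave 1187 higher and 2665 lower, upper quartile, which shifted them by 0.17, gave 2221 and 1605, and median of ratios 1748 and 1977. Of 1202 list genes 1106 kept their side of the rule with total counts and 1114 with upper quartile, and no called gene reversed. List medians changed sign between scalings in 17 lists, those near 0. No paired analysis was possible because each group was 1 library, and no library could be left out. At this depth genes with few counts have wide intervals, such as 4.96 to 9.89 for SULF2 on 2 and 209 counts.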

Other observations

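In the Notch list 2 of 12 were higher, with the ligand JAG1 at 1.59, and 3 lower, with the glycosyltransferase LFNG at -3.65. Among chemokine and leukocyte adhesion genes 3 of 11 were lower and 0 higher, including ICAM1 at -1.72 and CXCL12 at -1.18. KLF factors had 2 of 12 higher, KLF9 at 1.67 and KLF7 at 1.21, and the circadian list 2 of 16, the nuclear receptor RORA at 2.85 and BHLHE41 at 1.59. The medians of these 4 lists changed sign with the scaling, as did that of the oxygen-sensing list, where ARNT2 was lower at -1.08.

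Potassium channel genes had 5 of 14 lower and 1 higher, led by the leak channel KCNK2 at -3.47 and KCNQ5 at -3.16. Cadherins and protocadherins had 5 of 18 lower and 2 higher, with CDH4 at -2.21 and PCDH7 at 1.51. Amino acid transporters had 3 of 16 higher and 1 lower, with the neutral transporter SLC1A4 at 1.73 and the cationic one SLC7A2 at -1.81. Small nucleolar RNA host genes had 3 of 19 lower and 0 higher, with SNHG15 at -1.66 and a median of 0.09 that changed sign with the scaling.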
